A study of Mus musculus with 18 samples.

Results

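The liver X receptor LXR alpha (gene Nr1h3) and 3 transporters that carry sterols out of the hepatocyte, Abca1, Abcg5 and Abcg8, were followed in mouse liver. They were picked by name among the 289 gene probes of a sterol-focused cDNA microarray called Steroltalk. Of these 4 genes, 3 had a probe under their own name, with 1 probe each, and Nr1h3 had none and is not analysed here. Liver RNA came from 18 female C57BL/6 mice aged 16 weeks, all of which ate a diet with 1% cholesterol for 1 week. One group of 6 mice then received a single oral dose of tap water (vehicle), another 6 received 20 mg/kg rosuvastatin and another 6 received 40 mg/kg atorvastatin, and all were killed 24 h later. All groups, vehicle included, carry the cholesterol diet, so the values say nothing of the diet itself, and the labels give 1 dose and 1 time for each statin. Statins lower cholesterol by blocking its synthesis. Each array set the RNA of 1 mouse against a pool of all the samples. A level below is the log2 ratio of the mouse over that pool. There 0 is the level of the pool and a step of 1 is a doubling. Dyes were not swapped on any array, so a dye bias of a probe would be part of its level.

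LXR alpha and its close relative LXR beta are nuclear receptors that bind oxysterols, the oxidised forms of cholesterol, and act on DNA together with a retinoid X receptor. When cells hold much cholesterol they switch on genes that dispose of it. ABCA1 hands cholesterol and phospholipid to lipid-poor apolipoprotein A-I and so starts a high density lipoprotein particle. ABCG5 and ABCG8 are half-transporters that work as a pair in the canalicular membrane of the hepatocyte, where they export cholesterol and plant sterols into bile.

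Abcg5 and Abcg8 lie head to head on mouse chromosome 17 (RefSeq annotation of GRCm38.p6). Abcg5 covers 84658174 to 84683011 on the minus strand and Abcg8 covers 84676302 to 84700333 on the plus strand. RefSeq lists 2 start sites for Abcg8. The one used here lies 110 bases from the start of Abcg5, and the other lies 6819 bases upstream of it, inside the span of Abcg5. The stretch between the start sites of both genes is shown because the results below turn on how closely the 2 transcripts moved together. It is given 5′ to 3′ on the plus strand (chr17:84683012-84683120, 109 bases), with the matches to AGATAA on either strand, a sequence that GATA factors bind, in capitals.
Abcg5 to Abcg8: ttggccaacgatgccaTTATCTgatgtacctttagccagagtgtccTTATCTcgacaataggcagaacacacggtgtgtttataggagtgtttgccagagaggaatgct
The stretch held 2 matches. Of the 109 bases before the start of each of 27025 genes, 4.03% held at least 1 match and 0.178% held at least 2.

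Abca1 lies apart from them, on the minus strand of chromosome 4 from 53030789 to 53159988. The 30 bases printed next are on the minus strand (chr4:53159940-53159969). Their capitals mark GGTTA and GGTCA repeated in the same direction with 5 bases between them, read here on the opposite strand, an arrangement that in the human ABCA1 promoter is a site for LXR with its retinoid X receptor partner.
Abca1: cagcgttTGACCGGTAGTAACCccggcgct
The match ran from 67 to 53 bases before 53159895, the start site of the RefSeq promoter window. RefSeq's span of the gene begins 93 bases further upstream, so the match lies inside that span. Searched on both strands, this arrangement was found in 10 of the 27025 promoter windows (0.037%), each of 300 bases with 250 before the start. The windows of Abcg5 and Abcg8 held 0 matches, which says only that these letters are not in those windows.

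Of the 289 gene probes, 188 were above background on at least 6 arrays and were tested. Hepatocyte markers were well measured: Alb, Apoa1, Cyp2e1 and Cyp3a11, all 4 of the 7 listed ones that the array held, were above background on all 18 arrays. None of the macrophage or biliary markers listed was on the array. Of the endothelial markers Icam1 was above background on 10 arrays and Vcam1 on 3, and of the adipocyte markers Adipoq was above it on 9, Retn on 2 and Lep on 0. In whole liver, fewer cells of a type and less RNA per cell cannot be told apart. Arrays of vehicle 5 and atorvastatin 4 stood apart from the rest, with a median Pearson r with the other arrays over probes of 0.25 and -0.46, where the others had 0.64 to 0.89. The labels give both arrays the same dyes as the rest, so the direction of their ratios was kept. Arrays also differed in the number of pixels of the ring in which background was read (197 on 11 arrays that hold mice of all 3 groups, and 212, 214 or 228 on the others), and this was treated as a batch.

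All 3 transporters were measured on every array. Each probe was spotted 3 times, and 54 of 54 spots of each gene were above the local background plus 2 background SDs, with 0 saturated. The Abca1 spots of the mouse sample had intensities of 361.3 to 1154.7 over backgrounds of 65.3 to 151.7. Abcg5 intensities ran from 477.7 to 6197.3, and the second highest was 1518.3. Abcg8 intensities ran from 347.3 to 4843.7, with 924.3 as the second highest. The brightest array for all 3 genes was vehicle 5, which also had the highest median intensity over all gene spots (376, against 206 to 327 elsewhere).

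**Figure D1:**
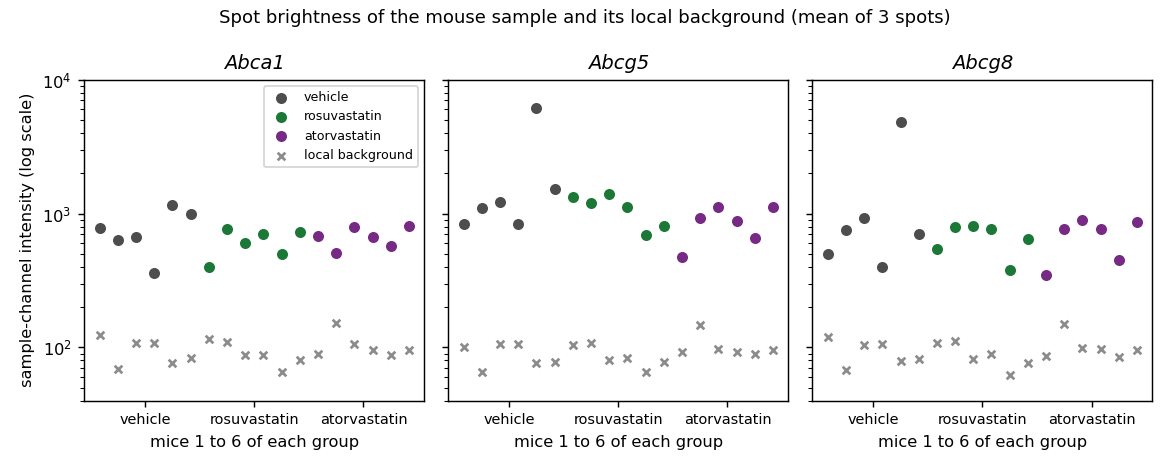
Intensity of the mouse sample (filled circles, mean of 3 spots, log axis) and of its local background (crosses) for each of the 18 mice. Every circle lies above its cross, and for Abcg5 and Abcg8 vehicle 5 stands far above the other mice at 6197.3 and 4843.7.

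Abca1 differed less between mice than Abcg5 and Abcg8. Vehicle mice had log2 ratios of 0.73, 0.25, -0.07, 0.27, -0.04 and 0.37 (mice 1 to 6), a mean of 0.25 ± 0.29 (SD, n = 6). Under rosuvastatin the values were 0.57, 0.16, 0.24, -0.01, -0.02 and -0.08, with a mean of 0.14 ± 0.24 (SD, n = 6). Atorvastatin mice lay closest together, at 0.29, 0.18, 0.23, -0.08, 0.10 and 0.27, with a mean of 0.17 ± 0.14 (SD, n = 6). The 3 groups overlapped almost wholly, and the whole span from the lowest to the highest mouse was 1.75-fold. Of the 3 highest mice, vehicle 1, rosuvastatin 1 and vehicle 6, the 3 spots of the array scattered most (SD of 0.43, 0.31 and 0.30, against a median of 0.07 over the mice). The span depended on the normalisation. With spike-in medians it ran from -0.51 (vehicle 3) to 0.95 (vehicle 6). In the deposited ratio table it ran from -0.39 to 0.94 for the same mice. With global medians it ran from -0.43 (vehicle 3) to 0.30 (rosuvastatin 1).

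Abcg5 spread much more widely. The vehicle values were -0.36, 0.27, 0.27, -0.06, 1.58 and 0.00, a mean of 0.29 ± 0.68 (SD, n = 6). Rosuvastatin mice had 0.56, 0.04, 0.66, -0.12, -0.43 and -0.34, with a mean of 0.06 ± 0.46 (SD, n = 6). For atorvastatin mice the values were -0.85, 0.33, -0.08, -0.20, -0.51 and -0.16, with a mean of -0.25 ± 0.40 (SD, n = 6). Vehicle 5 stood 2.999-fold above the pool, and without it the vehicle mean was 0.03 ± 0.27 (SD, n = 5). The lowest mouse was atorvastatin 1, 5.40-fold below vehicle 5. Groups overlapped, since 4 of 6 atorvastatin mice and 5 of 6 rosuvastatin mice lay within the range of the vehicle mice. Without vehicle 5 that range was narrower and held 3 of 6 mice of each statin.

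Abcg8 had the same highest and the same lowest mouse as Abcg5. Values under vehicle were -0.40, 0.35, 0.07, 0.00, 1.99 and -0.48, a mean of 0.26 ± 0.90 (SD, n = 6). Values under rosuvastatin were 0.67, -0.15, 0.59, -0.26, -0.50 and -0.31, with a mean of 0.01 ± 0.50 (SD, n = 6). Values under atorvastatin were -0.83, 0.24, -0.11, -0.05, -0.36 and -0.07, with a mean of -0.19 ± 0.36 (SD, n = 6). Vehicle 5 was again the highest, 3.97-fold above the pool, and atorvastatin 1 again the lowest, 7.03-fold below vehicle 5. Without vehicle 5 the vehicle mean was -0.09 ± 0.34 (SD, n = 5). Of the 6 mice on each statin, 5 lay within the vehicle range, and without vehicle 5 it held 3 rosuvastatin and 5 atorvastatin mice.

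**Figure D2:**
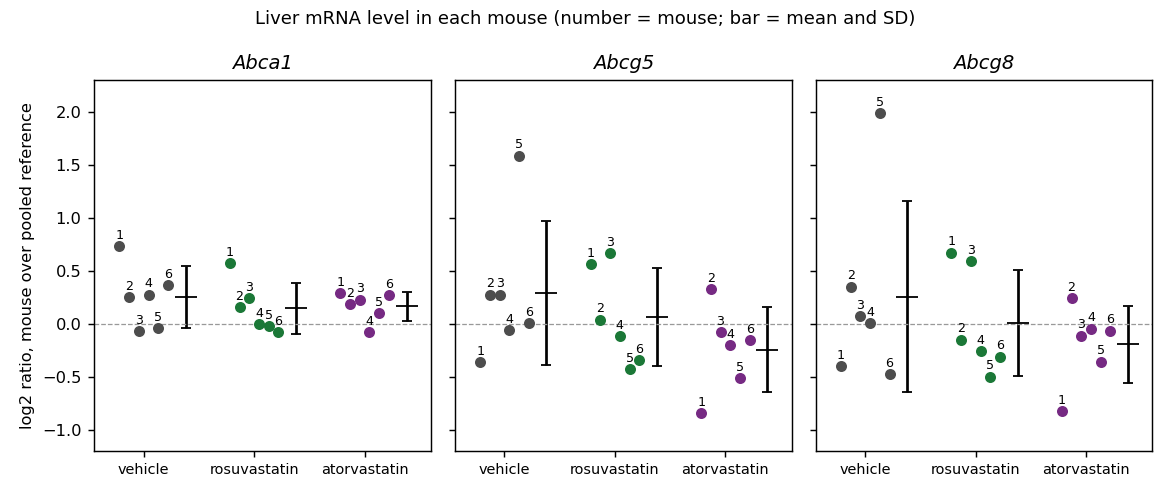
Log2 ratio of each mouse over the pooled reference for Abca1, Abcg5 and Abcg8, with the mouse number above each point and the group mean and SD (n = 6) beside the points. The groups overlap for all 3 genes, and vehicle 5 lies apart for Abcg5 (1.58) and Abcg8 (1.99) but not for Abca1 (-0.04).

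The array of vehicle 5 differed from the others in further ways. Its calibration spike-ins had a median log2 ratio of -0.02 before normalisation, against -1.35 to -0.40 on the other arrays, and 218 of its gene probes were above background, against 155 to 200. The mean log2 ratio of its cholesterol synthesis genes, -0.81, was the lowest of the 18 mice, followed by -0.80 in rosuvastatin 4 and -0.78 in rosuvastatin 3. The part of these features in its Abcg5 and Abcg8 values was not tested. Vehicle 5 was the highest mouse for both genes under each of the other background corrections and normalisations and in the deposited ratio table, at 1.37 to 1.62 for Abcg5 and 1.83 to 2.05 for Abcg8.

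The first question was whether a single dose of either statin changed the transporters. No difference passed the test. With rosuvastatin against vehicle, 0 of the 3 genes were called in limma at an adjusted p of 0.05, as were 0% of the 188 probes tested, and none of the 3 had an unadjusted p under 0.05, which 6.38% of the probes had. Abca1 had a log2 fold change of -0.11 (SE 0.13, 95% CI -0.38 to 0.17, limma adjusted p = 0.825). For Abcg5 it was -0.22 (SE 0.29, 95% CI -0.82 to 0.38, limma adjusted p = 0.851), and for Abcg8 it was -0.25 (SE 0.34, 95% CI -0.97 to 0.47, limma adjusted p = 0.856). The Abcg5 and Abcg8 signs rested on vehicle 5, without which the differences were 0.04 (95% CI -0.43 to 0.50) and 0.10 (95% CI -0.40 to 0.59). Within the 11 arrays of one ring size, vehicle 5 among them, they were -0.49 and -0.54, and Abca1 was at -0.06.

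Atorvastatin against vehicle again had 0 of the 3 genes called, against 0% of the 188 probes at the adjusted p and 8.51% at an unadjusted p under 0.05, which none of the 3 reached. Abcg5 had a log2 fold change of -0.53 (SE 0.29, 95% CI -1.13 to 0.07), or 0.69-fold, with 5 of 6 atorvastatin mice below the vehicle mean (limma adjusted p = 0.593, two-sided exact permutation p = 0.117). For Abcg8 it was -0.45 (SE 0.34, 95% CI -1.17 to 0.27, limma adjusted p = 0.687), with 6 of 6 mice below the vehicle mean, which vehicle 5 raises. Abca1 was at -0.09 (SE 0.13, 95% CI -0.36 to 0.19, limma adjusted p = 0.904). Leaving out vehicle 5 brought Abcg5 to -0.27 (95% CI -0.74 to 0.20) and Abcg8 to -0.10 (95% CI -0.60 to 0.39). Abcg5 had an unadjusted limma p of 0.0364 without vehicle 1 (-0.66) and of 0.0426 without atorvastatin 2 (-0.65), with adjusted p-values of 0.636 and 0.627. Within the 11 arrays the values were -0.56 for Abcg5, -0.53 for Abcg8 and -0.03 for Abca1. With ring size as a block over all 18 arrays they were -0.36, -0.29 and -0.08.

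Set against each other, the statins gave no difference that passed either, and since their doses differed, drug and dose cannot be told apart. Again 0 of the 3 genes were called, against 0% of the probes at the adjusted p and 5.32% at an unadjusted p under 0.05. Atorvastatin minus rosuvastatin was 0.02 for Abca1 (95% CI -0.25 to 0.30), -0.31 for Abcg5 (95% CI -0.91 to 0.29) and -0.20 for Abcg8 (95% CI -0.92 to 0.52), with limma adjusted p-values of 0.972, 0.699 and 0.891. The intervals reach from 0.53-fold to 1.23-fold for Abcg5, which is the range of changes compatible with these mice. Within the 11 arrays the values were 0.03, -0.07 and 0.01.

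A joint test over the 3 groups called 0 of the 3 genes and 0% of the 188 probes at the adjusted p (6.91% of the probes and none of the 3 genes had an unadjusted p under 0.05), with limma adjusted p-values of 0.855 for Abca1, 0.662 for Abcg5 and 0.787 for Abcg8. In order of group means Abca1 ran from vehicle through atorvastatin to rosuvastatin, and Abcg5 and Abcg8 ran from vehicle through rosuvastatin to atorvastatin. No neighbours in these orders differed beyond their spread. Without vehicle 5 the rosuvastatin mean of Abcg5 and Abcg8 was above that of vehicle.

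**Figure D3:**
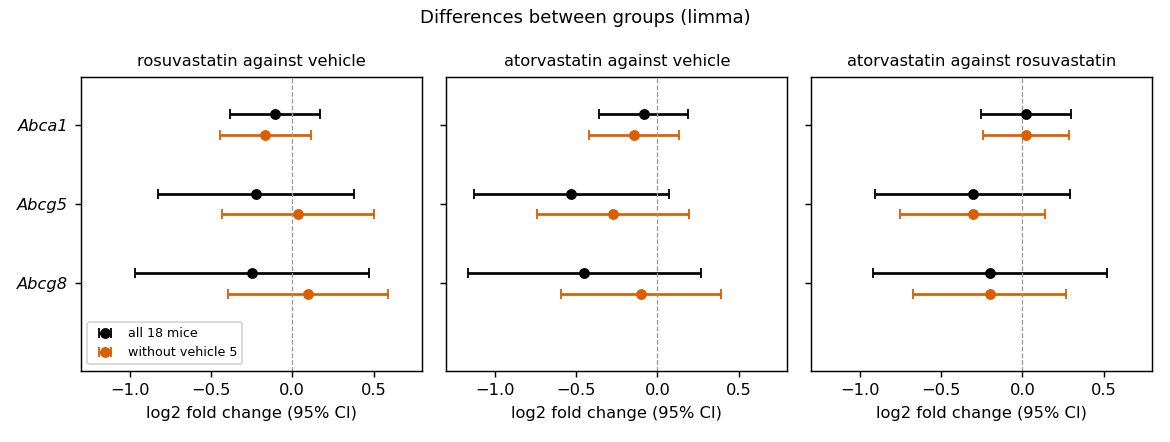
Log2 fold change with its 95% confidence interval for the 3 genes in the 3 comparisons, with all 18 mice (black) and without vehicle 5 (orange). All 18 intervals drawn include 0, and without vehicle 5 Abcg5 and Abcg8 move from -0.22 and -0.25 to 0.04 and 0.10 for rosuvastatin against vehicle.

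The spread between mice of a group was wide for Abcg5 and Abcg8. The SD within groups was 0.53 for Abcg5 and 0.63 for Abcg8, the 15th and the 11th highest of the 188 probes, whose median was 0.20. For Abca1 it was 0.23, at rank 75. Without vehicle 5 the SDs of Abcg5 and Abcg8 were 0.39 and 0.41 (ranks 28 and 23), where the median over probes was 0.19. The 3 spots of a probe on 1 array had a median SD of 0.03 for Abcg5 and 0.06 for Abcg8, which covers spotting but not labelling or hybridisation.

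Abcg5 and Abcg8 moved together from mouse to mouse. Over the 18 mice Pearson's r was 0.96 (permutation p = 1e-05, the smallest that 100000 resamples can give) and Spearman's rho 0.86 (permutation p = 3e-05), with Benjamini-Hochberg adjusted values of 3e-05 and 9e-05 over the 3 pairs of transporters. The r was 0.92 without vehicle 5, 0.89 without the 2 mice farthest from the Abcg5 median, 0.96 within the 11 arrays of one ring size and 0.96 on deviations from the group means. In each group it was also high, at 0.97 under vehicle (0.74 without vehicle 5), 0.98 under rosuvastatin and 0.97 under atorvastatin. Of all 17578 pairs among the 188 probes, 14 correlated at least as closely, this pair included, and the median over all pairs was -0.01. Without vehicle 5 there were 29 such pairs. Probe sequences were not analysed here, so binding of one transcript to the probe of the other was not tested.

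In single mice the 2 log2 ratios were nearly equal. Both are relative to the pool, so this does not compare the amounts of the 2 transcripts. The difference of the log2 ratios was not computed for other pairs of probes. For Abcg5 minus Abcg8 it had a mean of 0.01 ± 0.19 (SD, n = 18) and was within 0.2 of 0 in 15 of the 18 mice. The exceptions were all vehicle mice, at -0.40 in vehicle 5, 0.48 in vehicle 6 and 0.20 in vehicle 3. Under rosuvastatin the difference lay between -0.11 and 0.19, and under atorvastatin between -0.16 and 0.08. No pair of groups passed a test of the mean of this difference (two-sided exact permutation p = 0.844 for rosuvastatin and 0.558 for atorvastatin against vehicle, and 0.110 between the statins, with 6 mice in each group). That test compares means and cannot speak to the spread, which was wider under vehicle (SD 0.30) than under rosuvastatin (0.11) or atorvastatin (0.10). The spread was not tested.

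**Figure D4:**
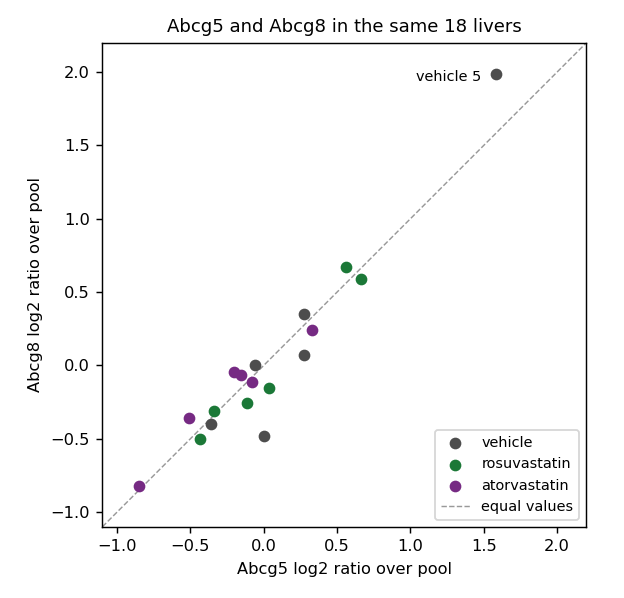
Abcg8 log2 ratio against Abcg5 log2 ratio of the same mouse, both over the pooled reference, for 18 mice coloured by group, with the line of equal values dashed. The points follow the line (r = 0.96) from atorvastatin 1 at the lower left to vehicle 5 at the upper right.

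Abca1 did not move with this pair over all mice. Its r was -0.08 with Abcg5 and -0.12 with Abcg8 (permutation p = 0.737 and 0.631, both 0.737 after Benjamini-Hochberg adjustment over the 3 pairs), and its rho was 0.05 and -0.08 (permutation p = 0.857 and 0.744, both 0.857 after adjustment). Without vehicle 5 both r values were 0.14. Leaving out the 2 mice farthest from the Abca1 median gave -0.13 and -0.21, and within the 11 arrays r was 0.07 and -0.03. The groups differed in sign. With Abcg5 the r was -0.73 under vehicle, 0.85 under rosuvastatin and -0.15 under atorvastatin, and with Abcg8 it was -0.64, 0.89 and -0.32. These are descriptions over 6 mice each, and the difference between groups was not tested.

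The probes whose pattern over the 18 mice came closest were looked up for each transporter, as a description without a test. For Abca1 they included Cyp2j6, a cytochrome P450 (r = 0.80), and the circadian transcription factor Clock (0.76). Without vehicle 5 these stood at 0.79 and 0.74. For both Abcg5 and Abcg8 the nearest was the other of the pair. Next came the complement genes C9 (0.64) and C2 (0.58) for Abcg5, and C9 (0.70) and Scarb1 (0.69) for Abcg8. Scarb1 encodes SR-BI, which takes up cholesterol from high density lipoproteins. Without vehicle 5 C9 was at 0.25 with Abcg5 and 0.30 with Abcg8, and C2 at 0.28 with Abcg5. Scarb1 kept an r of 0.55 with Abcg8 and was then its second nearest probe.

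The receptors themselves were hard to see. LXR beta (Nr1h2) was above background on 3 of 18 arrays, 1 in each group, with sample intensities of 104.3 to 188.7 over backgrounds of 63.7 to 147.3, and was not tested. Its partner Rxra was above background on 17 arrays, with log2 ratios from -0.56 to 0.36. Of 19 LXR partners and targets listed, 14 were on the array and 11 were tested, and 0 passed limma's adjusted p in any comparison (0, 1 and 1 had an unadjusted p under 0.05, beside 6.38%, 8.51% and 5.32% of all probes in the order of the comparisons above). For rosuvastatin against vehicle 8 of the 11 lay above 0 and 3 below, where 51.6% of all 188 probes lay below (median 0.05, against -0.01 over all probes). Scd1, the desaturase that makes monounsaturated fatty acids, was at -0.46 (SE 0.27), Apoe at 0.17, Mlxipl, a carbohydrate-sensing factor, at 0.16 and Ncor1, a corepressor, at 0.10. For atorvastatin against vehicle 6 lay above 0 and 5 below, where 54.3% of all probes lay below (median 0.04, against -0.01). There Apoc1, an apolipoprotein, was at -0.26 (SE 0.10), Scd1 at -0.45, Rxra at 0.21 and the coactivator Ncoa1 at 0.10. Between the statins 5 lay above 0 and 6 below, where 47.9% of all probes lay below (median -0.05, against 0.01). Here Apoc1 was at -0.28, Apoe at -0.14, Rxra at 0.16 and the sterol exporter Abcg1 at -0.06.

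Enzymes that make or break down oxysterols were measured for 3 of 5 listed genes, and 0 passed in limma (1, 0 and 1 had an unadjusted p under 0.05, beside the same 6.38%, 8.51% and 5.32% of all probes). Cyp7b1, which hydroxylates oxysterols on the way to bile acids, was at 0.26 (SE 0.09) with rosuvastatin, 0.06 with atorvastatin and -0.20 between the statins. Cyp39a1, an oxysterol hydroxylase, was at -0.20, -0.13 and 0.07, and Cyp27a1, which makes 27-hydroxycholesterol, at 0.01, 0.01 and 0.00. The list medians were 0.01, 0.01 and 0.00, near those of all probes (-0.01, -0.01 and 0.01).

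Of 9 genes of high density lipoprotein and sterol uptake, 6 were tested and 0 passed in limma, also at an unadjusted p under 0.05, with medians of -0.02, -0.01 and -0.04 in the same order of comparisons. Scarb1 was at 0.17 and 0.12 with the statins against vehicle. Apoa5, an apolipoprotein of triglyceride-rich particles, was at -0.06 and 0.08, and at 0.13 between the statins. Apoa4 was at -0.15 with atorvastatin. Among other ABC transporters 8 of 10 listed genes were tested and 0 passed in limma (0, 1 and 0 at an unadjusted p under 0.05, beside 6.38%, 8.51% and 5.32% of all probes), with medians of 0.01, -0.02 and -0.04. The basolateral bile salt and conjugate exporter Abcc3 was at 0.28 (SE 0.15) with rosuvastatin and 0.35 (SE 0.15) with atorvastatin. Abcc1, a related exporter of conjugates, was at -0.14, 0.10 and 0.24, and the phospholipid exporter Abcb4 was at -0.10 with atorvastatin and -0.16 between the statins.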

How the data were processed

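Each array file holds the deposited intensity values of the spots, the median brightness of spot and local background in the sample (Cy3) and reference (Cy5) channels, linear and without background removal, and the pixel number of the background ring (another deposited measure, used as a batch). The authors also deposited log2 ratios of the same arrays, whose scale and direction followed the scanner values (r over probes 0.924 to 0.997). Column medians of that table lay between -0.32 and 0.56. For its steps, and for the image software, the answer is: not given in the sources used here.

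In R 4.3.3 with limma 3.58.1, background was corrected by normexp (offset 50) in both channels, ratios were normalised by loess within each array with control spots at weight 0, and spots of a probe were averaged. Probes above background (0.5 or more of its spots above the local background plus 2 SDs) on at least 6 of 18 arrays entered 1 fit with a mean for each group. Tests were two-sided, with Benjamini-Hochberg adjustment over 188 probes and a threshold of 0.05. The number of arrays, 6 in each group, limits the precision. Correlations over mice were tested by 100000 permutations. The limma fit was tested on simulated log2 ratios with independent normal noise, which held no outlying array. Alternatives were other background corrections, normalisations and filters, the deposited ratio table, a replicate block, array weights, the ring size, leaving out mice, and exact permutation tests.

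The smallest-p member of each list and up to 3 more were named, besides the 3 probes most like each transporter. A few of those are left unnamed and still enter counts and medians. The members, lists and alternatives were chosen with earlier results of these data known. Sequences are RefSeq promoter windows of GRCm38.p6, matched for 3 of 3 measured genes. The labels tie replicate numbers to no shared animal or day.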

Additional observations from a re-analysis of the deposited data

Results flagged for a closer look

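In the vehicle group the Abcg5 value of vehicle 5 (1.58) and its Abcg8 value (1.99) lay far from the other 5 mice. The gap to the next mouse was 0.67 of the group's whole range for Abcg5 and 0.67 for Abcg8, above Dixon's 95% critical value for 6 samples. Among the genes named from the lists, Abcg1 was high in atorvastatin 4 (0.32, a gap of 0.79 of the range) and Ncor1 was low in vehicle 6 (-0.43, a gap of 0.79). The gap was looked up for the transporters and the genes named from the lists, in each of the 3 groups. It was not looked up for C9, C2, Cyp2j6 or Clock, which are in none of the lists. Chance alone marks about 1 in 20 groups in this way, so some marks would arise by chance. Both vehicle 5 values come from 1 array, and the probes of Abcg5 and Abcg8 moved together. Abca1 had no such mouse in any group.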

How the results depend on the processing

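The 3 transporters stayed short of the threshold under every alternative run, with limma adjusted p-values of 0.504 or more, and of 189 member differences that an alternative moved at all, 173 kept their sign. Signs of Abca1 between the statins turned with values near 0, at -0.028 with spike-in medians, -0.0015 in the deposited table, -0.006 with array weights and -0.031 with the ring as a block. Array weights turned rosuvastatin against vehicle to 0.021 for Abcg5 and 0.048 for Abcg8, and leaving out vehicle 5 and atorvastatin 4 turned them to 0.036 and 0.098. Within the 11 arrays Abcg8 between the statins was at 0.013. The cause was not tested.

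Leaving out 1 mouse at a time gave, for rosuvastatin against vehicle, -0.19 to -0.012 for Abca1, -0.35 to 0.036 for Abcg5 and -0.40 to 0.098 for Abcg8. For atorvastatin against vehicle it gave -0.15 to 0.010, -0.66 to -0.27 and -0.60 to -0.10, and between the statins -0.022 to 0.11, -0.42 to -0.19 and -0.30 to -0.068. In each of these fits 0 probes were called in limma, while the probes at an unadjusted p under 0.05 ranged from 5 to 29, 10 to 31 and 6 to 15 in the same order.

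With the replicate number as a block, limma called 2 probes for atorvastatin against vehicle, neither of them a transporter, and 0 in the other comparisons. Deviations of same-numbered mice correlated above 0.1 in 10 of 18 pairings (r over probes -0.60 to 0.61, median 0.17). No differently numbered mice were set beside them, so these values cannot decide whether the numbers pair the mice. The main fit did not pair them, because the labels do not tie the numbers to a shared animal or day. The r of Abca1 with Abcg5 and Abcg8 turned above 0 with global median normalisation (0.064 and 0.052), spike-in medians (0.38 and 0.26), the deposited table (0.32 and 0.16), without vehicle 5 and atorvastatin 4 (0.12 and 0.16), and, in alternatives chosen after seeing the data, without vehicle 5 (0.14 and 0.14) and within the 11 arrays (0.068, Abcg5 alone). The r of Abcg5 with Abcg8 stayed between 0.89 and 0.96. Alternatives for Nr1h3 could not be run, since it has no probe here. With 6 mice a group, the standard errors of a log2 fold change were 0.13 for Abca1, 0.29 for Abcg5 and 0.34 for Abcg8.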

Other observations

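With vehicle 5 included, cholesterol synthesis genes, a list added after seeing the data, ran against Abcg5 and Abcg8 from mouse to mouse. Over 18 mice the mean log2 ratio of the 15 measured genes of this list had an r of -0.54 with Abcg5 (rho -0.43) and -0.58 with Abcg8 (rho -0.53). The permutation p-values of r were 0.0194 and 0.00922, and 0.0291 and 0.0277 after Benjamini-Hochberg adjustment over 3 transporters. Those of rho were 0.0769 and 0.0264, and 0.115 and 0.0793 after adjustment, so the ranks did not pass. Leaving out vehicle 5 gave -0.36 and -0.44 (adjusted permutation p = 0.162 for both), and leaving out the 2 mice farthest from the median of the synthesis mean gave -0.44 and -0.57 (0.128 and 0.0621), and neither passed then. Within the 11 arrays of one ring size, vehicle 5 among them, r was -0.83 and -0.89 (adjusted permutation p = 0.0141 and 0.00738), while rho was -0.57 and -0.68 and did not pass (adjusted permutation p = 0.106 and 0.0738). On deviations from the group means, vehicle 5 included, r was -0.67 and -0.71 (adjusted permutation p = 0.00358 for both). There rho was -0.63 and -0.62 (adjusted permutation p = 0.0114 for both). The 11 arrays and the deviations were not run without vehicle 5. Abca1 had an r of 0.42 (rho 0.37, permutation p = 0.0831, adjusted 0.0831), in the other direction, and it did not pass.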
